A study of Mus musculus with 8 samples.

Results

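The kidney cortex takes filtered sugar and organic acids back into the blood through carriers of the Slc2 and Slc5 families, and 10 of these genes were followed in aged and young mice. They were chosen by name: the glucose carriers Slc5a1, Slc5a2, Slc2a1, Slc2a2 and Slc2a4, the fructose and mannose carriers Slc2a5 and Slc5a10, the urate carrier Slc2a9, and the lactate carriers Slc5a8 and Slc5a12. All 10 were among the 22609 genes of the count table, and all 10 were among the 13944 genes with enough counts to be tested. Total RNA depleted of ribosomal RNA came from renal cortex of male C57BL6 mice, 4 aged (30 months on the sample labels, somewhat older on average in the study's methods) and 4 young (5 months), each mouse giving its own library. The labels name no treatment or genetic alteration in either group. The question was which transcripts differ in the cortex between the ages. Values are TMM-scaled CPM, the read pairs of a gene over those of all genes in the library, and the p-values measure only the spread between these 8 mice.

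As background, sugar leaves the filtrate in the proximal tubule in a pair of steps. Sodium-coupled carriers of the Slc5 family pull it across the luminal brush border against its gradient, and carriers of the Slc2 family let it pass down its gradient through the basolateral membrane to the blood. SGLT2 (Slc5a2) with GLUT2 (Slc2a2) serve the early segments, called S1 and S2, where most glucose is recovered, and SGLT1 (Slc5a1) with GLUT1 (Slc2a1) serve the late segment, S3. Lactate is recovered in the same order by the low-affinity carrier SMCT2 (Slc5a12) early and the high-affinity carrier SMCT1 (Slc5a8) later.

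The libraries held between 14820804 and 19821429 read pairs on genes, so 3 counts, taken as the floor of detection for counting error, came to 0.151 to 0.202 CPM. Aged mouse 1 stood apart from the others. It lay at -71.5 on the first principal component (48.1% of the variance), where the other mice lay between -16.3 and 26.2. Its summed S1 and S2 markers (9 genes, among them the endocytic receptor Lrp2 and the phosphate carrier Slc34a1) came to 11160 CPM, against 21214 to 24153 CPM in the other aged mice and 21127 to 25626 CPM in the young mice. Not every marker was low in aged mouse 1: Slc6a19 stood at 356 CPM, above every young mouse (192 to 275). Slc4a4, at 2306 CPM, lay within the young range (2292 to 2732). The other markers of the list lay below every young mouse. Because aged mouse 1 stood apart, the age tests and ratios of the carriers are given with and without it. The 7 markers of S3 were summed to 1730 to 4278 CPM in aged and 4903 to 7209 CPM in young mice, with no overlap. Atp11a, the largest part of this sum in young mice, measured 318 to 1732 CPM in aged and 2151 to 3329 CPM in young mice. Taken singly, 3 of the 7 did not overlap between the ages (Slc22a7, Atp11a and Napsa), where 18.9% of all genes did. All 7 had a negative fold change (median log2 fold change -1.42), none was called by edgeR (2.06% of all genes tested were), and 6 had an unadjusted edgeR p below 0.05 (25.5% of all genes). None of the 16 proximal markers was at 0 in either group, although the organic anion carrier Slc22a7 was at only 0.687 CPM in aged mouse 1.

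Promoter windows are shown for Slc2a9 and Slc5a1 because these 2 carriers separated the ages completely. Both windows lie at 1 annotated start site of the gene, and whether that site is used in cortex was not measured. Each is the RefSeq window of 300 bases on GRCm38.p6, 250 before and 50 after an annotated start site, written 5′ to 3′ on the strand of the gene. They are Slc2a9 at chr5:38483336-38483635 (minus strand) and Slc5a1 at chr5:33103969-33104268 (plus strand). Capitals mark matches, on either strand, to an E-box, a TATA box or a GC box (each spelled out beside its result).
Slc2a9: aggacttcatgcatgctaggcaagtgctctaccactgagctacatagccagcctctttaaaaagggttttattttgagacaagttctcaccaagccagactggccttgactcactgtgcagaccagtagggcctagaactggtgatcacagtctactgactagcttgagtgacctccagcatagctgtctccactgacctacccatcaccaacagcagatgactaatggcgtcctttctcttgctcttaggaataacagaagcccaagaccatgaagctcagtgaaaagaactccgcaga
Slc5a1: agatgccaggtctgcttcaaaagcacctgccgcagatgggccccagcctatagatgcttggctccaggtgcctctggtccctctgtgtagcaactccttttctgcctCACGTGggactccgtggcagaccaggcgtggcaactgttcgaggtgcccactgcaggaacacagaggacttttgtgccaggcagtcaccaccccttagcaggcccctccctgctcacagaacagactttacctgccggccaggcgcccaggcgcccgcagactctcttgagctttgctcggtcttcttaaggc
The Slc5a1 window held 1 E-box with the letters CACGTG, starting at position -143 from the start site. E-boxes occurred in 7.15% of all 32851 mouse windows of this length. The Slc2a9 window held none of the 3 motifs, which says nothing of any other start site of the gene. A window was found for 7 of the 10 carriers. Of the others with one, Slc2a1 held 2 GC boxes and a TATA box, Slc2a5 and Slc5a8 held 3 GC boxes each, and Slc2a2 and both windows of Slc5a10 held none of the 3 motifs. The TATA box match of Slc2a1 started at position 28, after the start site. GC boxes, searched as GGGCGG, occurred in 35.7% of all windows. TATA boxes, searched as TATAAA, occurred in 13.6%. These are matches of letters only, and the binding of any factor was not measured.

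Levels were compared between genes as CPM per kilobase of the longest coding transcript. In young cortex the measured level was highest for the lactate carrier Slc5a12 (136 ± 26.1 CPM per kb, SD, n = 4) and the glucose carrier Slc5a2 (134 ± 26.4). It was lowest for the urate carrier Slc2a9 (5.54 ± 0.675), a 24.5-fold span. Between them came Slc5a8 (106 ± 9.23), Slc2a2 (79.1 ± 9.50), Slc5a10 (70.5 ± 8.84), Slc5a1 (29.1 ± 4.58), Slc2a5 (23.9 ± 3.60), Slc2a1 (15.5 ± 2.09) and Slc2a4 (11.4 ± 0.824). For Slc5a8, 23.5% of the 100-nt windows of the transcript have a near-identical copy elsewhere in mm9. Read pairs from those windows may be missing from its count, while its level was divided by the whole length. Its level may thus be too low, and its place below Slc5a12 and Slc5a2 is not settled. Neighbours in this order overlapped between mice for Slc5a12 and Slc5a2, Slc5a2 and Slc5a8, Slc2a2 and Slc5a10, and Slc5a1 and Slc2a5, while the other neighbouring pairs did not overlap. The transcripts of the early glucose carriers thus stood above those of the late ones in young mice. Slc5a2 lay above Slc5a1 and Slc2a2 above Slc2a1, with no overlap between mice.

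In aged cortex Slc5a12 led at 229 ± 80.0 CPM per kb (SD, n = 4), followed by Slc5a2 (123 ± 58.5), Slc2a2 (70.9 ± 20.7), Slc5a8 (70.2 ± 26.0) and Slc5a10 (63.3 ± 47.4). Slc2a5 (23.4 ± 13.5), Slc5a1 (19.0 ± 4.48), Slc2a1 (15.2 ± 1.81), Slc2a4 (9.79 ± 1.00) and Slc2a9 (8.28 ± 1.51) followed. The place of Slc5a8 in aged cortex is unsettled for the same reason as in young cortex. Every pair of neighbours overlapped between aged mice except Slc2a1 and Slc2a4. The order of neighbours was therefore less sharply resolved in aged than in young mice. The early glucose carriers still stood above the late ones with no overlap between aged mice. Slc5a2 was at least 54.7 and Slc5a1 at most 22.6, and Slc2a2 was at least 56.9 and Slc2a1 at most 17.5.

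**Figure D1:**
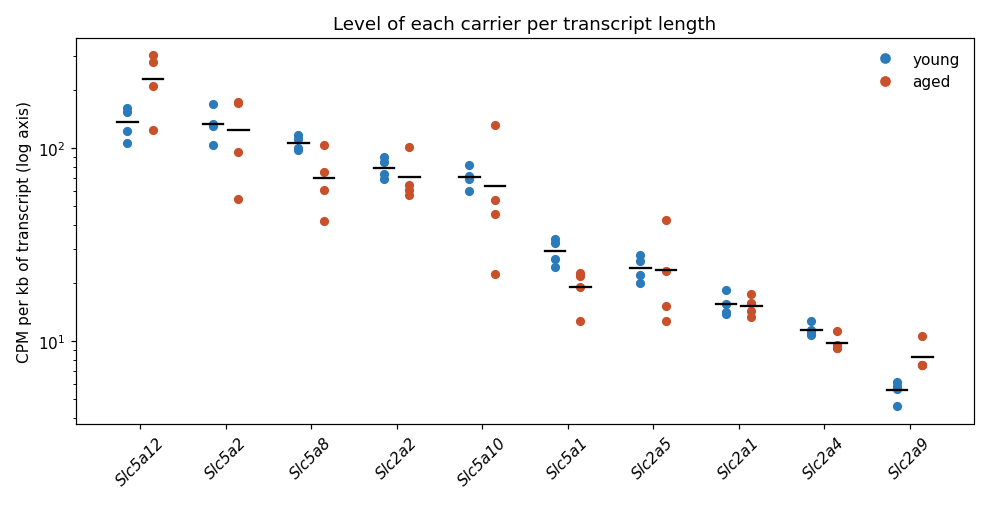
Level of each carrier in CPM per kilobase of transcript on a log axis, with 1 point per mouse (blue young, red aged) and a bar at each group mean. Carriers are ordered by the young mean, from Slc5a12 (136 in young, 229 in aged) to Slc2a9 (5.54 in young, 8.28 in aged). The level of Slc5a8 may be too low, because part of its transcript has a near-identical copy elsewhere in mm9.

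No carrier passed both criteria of the edgeR quasi-likelihood test, an adjusted p below 0.05 after Benjamini-Hochberg correction over all genes tested and a fold change above 1.5. The count was 0 of 10, where 2.06% of all genes tested passed, 1.17% higher and 0.889% lower in aged mice. At an unadjusted p below 0.05 there were 5 of 10 (Slc2a9, Slc5a1, Slc5a12, Slc5a8 and Slc2a4), against 25.5% of all genes. DESeq2 called 2, Slc5a1 and Slc5a12, and limma-voom with sample quality weights called 1, Slc5a12. Aged and young mice did not overlap for 2 of the 10, Slc2a9 and Slc5a1, against 18.9% of all genes. Without aged mouse 1 these were 4 of 10, with Slc5a12 and Slc5a10 added, against 23.9%. The median log2 fold change was -0.14 over the carriers and 0.03 over all genes tested. An adjusted p below 0.05 at any fold change was reached by 0 of 10 carriers and by 2.95% of all genes. Only Slc2a9 and Slc5a12 had a positive log2 fold change with TMM scaling, while Slc2a1 and Slc2a5 also turned slightly positive under upper-quartile or library-size scaling.

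**Figure D2:**
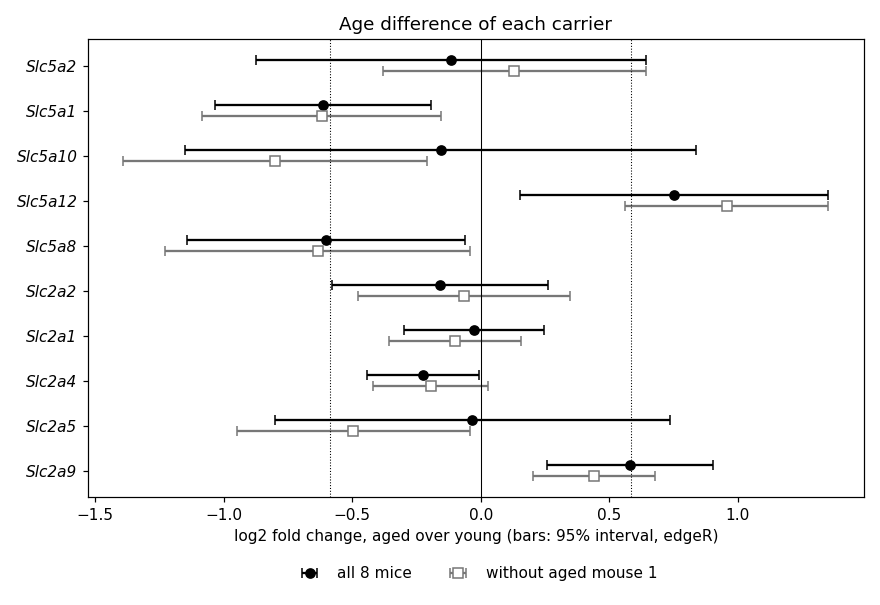
Log2 fold change of each carrier, aged over young, with its 95% interval from edgeR, for all 8 mice (black circles) and without aged mouse 1 (open squares); dotted lines mark a 1.5-fold change. The estimates lie between -0.62 (Slc5a1) and 0.75 (Slc5a12) with all mice, and that of Slc5a10 moves from -0.16 to -0.80 without aged mouse 1.

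Of the luminal glucose carriers, Slc5a1 was lower in every aged mouse and Slc5a2 was not separated by age. Slc5a1 (mm9 chr5:33446868-33505521, plus strand, 15 exons), the high-affinity SGLT1, measured 78.5, 92.8, 52.0 and 88.9 CPM in aged mice 1 to 4, while young mice 1 to 4 had 109, 99.1, 132 and 139 CPM. The highest aged mouse lay below the lowest young mouse. The log2 fold change was -0.62 (SE 0.19, 95% interval -1.04 to -0.19), with an edgeR adjusted p of 0.0942 that missed the threshold. Without aged mouse 1 it was -0.62 as well (edgeR adjusted p = 0.103). DESeq2 gave an adjusted p of 0.0240. The S3 markers, from the segment that holds most SGLT1, were lower as a sum in the same mice, and their part in the Slc5a1 difference was not tested. In bulk cortex, fewer cells of a type and less RNA per cell cannot be told apart.

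Slc5a2 (mm9 chr7:135409171-135415944, plus strand, 14 exons), the high-capacity SGLT2 and the target of the gliflozin drugs, measured 124, 395, 389 and 216 CPM in the aged mice and 296, 383, 301 and 237 CPM in the young mice. Aged mouse 1 had the lowest level of all, and aged mice 2 and 3 the highest. On the log2 scale the age difference was -0.12 (SE 0.34, 95% interval -0.87 to 0.64, edgeR adjusted p = 0.847), and 0.13 without aged mouse 1 (edgeR adjusted p = 0.752). The interval holds changes of more than 1.5-fold in both directions, so a moderate change was not detectable with these mice. The low value of aged mouse 1 stood beside its low sum of S1 and S2 markers, and the part of these in it was not tested.

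The log2 ratio of Slc5a2 to Slc5a1 counts within a library averaged 1.73 ± 0.97 in the 4 aged and 1.34 ± 0.49 in the 4 young mice (mean ± SD), a difference of 0.39 (two-sided exact permutation test, p = 0.514, adjusted over the 5 ratios 0.643). The difference was 0.75 without aged mouse 1, and without aged mouse 3 it was 0.0031. The aged ratios ran from 0.66 to 2.90 and enclosed all young ratios, which ran from 0.77 to 1.95. The balance of the early and the late luminal carrier thus differed more between aged mice than between the group means.

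On the basolateral side neither GLUT2 nor GLUT1 was separated by age. Slc2a2 (mm9 chr3:28596825-28627278, plus strand, 11 exons), the partner of SGLT2, measured 146, 261, 155 and 165 CPM in aged and 177, 229, 217 and 189 CPM in young mice. Aged mice 1, 3 and 4 lay below every young mouse and aged mouse 2 above all of them. Its fitted log2 fold change was -0.16 (SE 0.19, 95% interval -0.58 to 0.26, edgeR adjusted p = 0.612), and -0.07 without aged mouse 1 (edgeR adjusted p = 0.850).

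Slc2a1 (mm9 chr4:118781316-118809935, plus strand, 10 exons), the glucose carrier found in most cell types, was the carrier with the closest group means. It measured 45.6, 40.9, 37.4 and 34.6 CPM in aged and 48.0, 37.0, 36.0 and 40.3 CPM in young mice, with the ranges almost on top of each other. The log2 fold change was -0.03 (SE 0.12), and its 95% interval of -0.30 to 0.25 did not reach a 1.5-fold change on either side (edgeR adjusted p = 0.908). Its direction was not fixed, since it was -0.10 without aged mouse 1 and 0.07 without young mouse 1.

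Ratios within a library set each basolateral carrier against its luminal partner. Slc2a2 over Slc5a2 was -0.52 ± 0.64 (log2, SD, n = 4) in aged and -0.57 ± 0.21 in young mice, a difference of 0.05 (two-sided exact permutation test, p = 0.857, adjusted 0.857). Its direction was not fixed, since the difference was -0.20 without aged mouse 1 and 0.32 without aged mouse 3. Slc2a1 over Slc5a1 was -0.95 ± 0.40 in aged and -1.56 ± 0.32 in young mice, a difference of 0.61 (two-sided exact permutation test, p = 0.0857, adjusted 0.190). The Slc2a1 ratio differed by 0.56 without aged mouse 1.

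Slc2a4 (mm9 chr11:69756045-69761690, minus strand, 11 exons) encodes GLUT4, the insulin-regulated glucose carrier of muscle and fat. It measured 23.2, 28.5, 23.2 and 24.1 CPM in aged and 31.8, 27.2, 27.8 and 28.6 CPM in young mice. Aged mice 1, 3 and 4 lay below all young mice, and aged mouse 2 lay within the young range. The age difference on the log2 scale was -0.22 (SE 0.10, 95% interval -0.44 to -0.01, edgeR adjusted p = 0.186), and -0.19 without aged mouse 1 (edgeR adjusted p = 0.246).

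The cells that hold most GLUT4 elsewhere in the body left different traces in these libraries. The 5 adipocyte markers (Adipoq, Plin1, Cfd, Lep and Cidec) were summed to 8.49 to 262 CPM in aged and 1.09 to 24.3 CPM in young mice, with aged mouse 1 highest. Slc2a4 in that mouse was at 23.2 CPM, where the aged mice ran from 23.2 to 28.5 CPM. Relative to the mean log2 CPM of the S1 and S2 markers, its level there was the highest of the aged mice, at -4.17. That marker mean was itself lowest in aged mouse 1, at 8.71. The part of adipocytes in the Slc2a4 level was not tested. The 4 skeletal muscle markers reached at most 0.687 CPM in any library.

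The lactate carriers had fold changes of opposite sign. Slc5a12 (mm9 chr2:110437455-110487936, plus strand, 15 exons), the low-affinity SMCT2, measured 439, 987, 1064 and 736 CPM in aged and 430, 567, 545 and 374 CPM in young mice. Aged mice 2, 3 and 4 lay above every young mouse, and aged mouse 1 lay within the young range. On the log2 scale the age difference was 0.75 (SE 0.27, 95% interval 0.15 to 1.35, edgeR adjusted p = 0.128). Without aged mouse 1 it was 0.96 and passed both criteria (edgeR adjusted p = 0.0258), as it did with all mice by DESeq2 (adjusted p = 0.0441) and limma-voom (adjusted p = 0.0417).

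Slc5a8 (mm9 chr10:88348737-88392250, plus strand, 15 exons), the high-affinity SMCT1, which also carries short-chain fatty acids, measured 398, 323, 222 and 550 CPM in aged and 621, 534, 517 and 594 CPM in young mice. Aged mice 1, 2 and 3 lay below every young mouse, and aged mouse 4 lay within the young range. The log2 fold change was -0.60 (SE 0.24, 95% interval -1.14 to -0.06, edgeR adjusted p = 0.160), -0.63 without aged mouse 1 (edgeR adjusted p = 0.165) and -0.85 without aged mouse 4, where it passed both criteria (edgeR adjusted p = 0.0359). Its counts are less certain than those of the other carriers, because 23.5% of the 100-nt windows of its transcript match another place in mm9 at an identity of 98% or more. This share was 0.146% for Slc5a12 and 0 for the other 8 carriers.

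Within each library the pair gave the largest difference of the 5 ratios examined, and the one with the smallest p. Slc5a8 over Slc5a12 counts gave 0.908, 0.328, 0.208 and 0.747 for aged mice 1 to 4, and for the young mice 1.44, 0.943, 0.948 and 1.59. Every aged ratio lay below every young ratio, although aged mouse 1 (0.908) came close to young mouse 2 (0.943). On the log2 scale the means ± SD were -1.11 ± 1.00 for the 4 aged and 0.26 ± 0.40 for the 4 young mice. The geometric mean ratio was 2.58-fold lower in aged mice (p = 0.0286 by two-sided exact permutation, which is the lowest value that 4 against 4 mice allow). After adjustment over the 5 ratios the value was 0.143. The log2 difference was -1.37 with all mice and -1.69 without aged mouse 1.

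**Figure D3:**
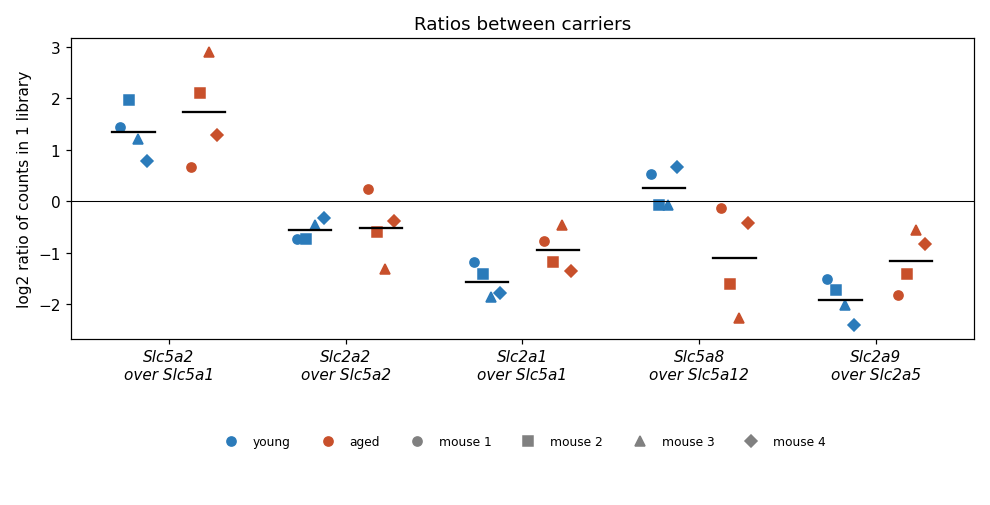
Log2 ratio of the counts of 2 carriers in 1 library, by mouse (blue young, red aged; marker shapes give the mouse number within its group), with a bar at each group mean. Only for Slc5a8 over Slc5a12 do the groups not overlap, from -2.26 to -0.14 in aged and from -0.09 to 0.67 in young mice.

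The fructose and mannose carriers differed far more among the aged mice than between the groups. Slc5a10 (mm9 chr11:61486283-61534328, minus strand, 16 exons), the luminal carrier SGLT5, measured 297, 122, 50.5 and 102 CPM in aged and 155, 136, 162 and 184 CPM in young mice. Aged mouse 1 lay above every young mouse, and the other 3 aged mice lay below all of them. Its log2 fold change was -0.16 (SE 0.44, 95% interval -1.15 to 0.84, edgeR adjusted p = 0.844). Without aged mouse 1 it was -0.80 (95% interval -1.39 to -0.21, edgeR adjusted p = 0.0980), and without aged mouse 3 it was 0.12.

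Slc2a5 (mm9 chr4:149493392-149518278, plus strand, 14 exons), the fructose carrier GLUT5, had a similar pattern. It measured 134, 72.5, 40.2 and 48.1 CPM in aged and 63.0, 69.3, 81.8 and 87.9 CPM in young mice. Aged mouse 1 was again above every young mouse, aged mice 3 and 4 were below all of them, and aged mouse 2 was among them. The age difference on the log2 scale was -0.03 (SE 0.34, 95% interval -0.80 to 0.74, edgeR adjusted p = 0.957), and -0.50 without aged mouse 1 (edgeR adjusted p = 0.159).

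Slc2a9 was the carrier with the smallest p-value. It encodes GLUT9, which carries urate (mm9 chr5:38740512-38894382, minus strand, 12 exons). It measured 38.0, 27.2, 27.1 and 27.1 CPM in aged and 22.2, 20.9, 20.3 and 16.5 CPM in young mice, from 418 to 774 counts and from 280 to 396 counts. All aged mice lay above all young mice, aged mouse 1 stood far above the others, and the other 3 aged mice were nearly equal. The log2 fold change was 0.58 (SE 0.14, 95% interval 0.26 to 0.90), or 1.49-fold, with an edgeR adjusted p of 0.0615, so both criteria were narrowly missed. It passed both without aged mouse 4 (0.62, edgeR adjusted p = 0.0485) and with library sizes in place of TMM factors (0.69, edgeR adjusted p = 0.0417). Without aged mouse 1 it was 0.44 with an edgeR adjusted p of 0.0468, under the p threshold and under the fold threshold. DESeq2 and limma-voom, with all mice, also gave an adjusted p below 0.05 (0.00869 and 0.0493) at a fold change below 1.5.

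The genes whose log2 CPM followed Slc2a9 most closely over the 8 libraries were Susd1 (Pearson r = 0.98), Tmem191c (r = 0.98) and Inpp5k (r = 0.98). These values describe 8 libraries that share the age difference and the position of aged mouse 1. The log2 ratio of Slc2a9 to Slc2a5 was -1.16 ± 0.57 (SD, n = 4) in aged and -1.91 ± 0.39 in young mice, a difference of 0.75 (two-sided exact permutation test, p = 0.114, adjusted 0.190). It was 0.97 without aged mouse 1.

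**Figure D4:**
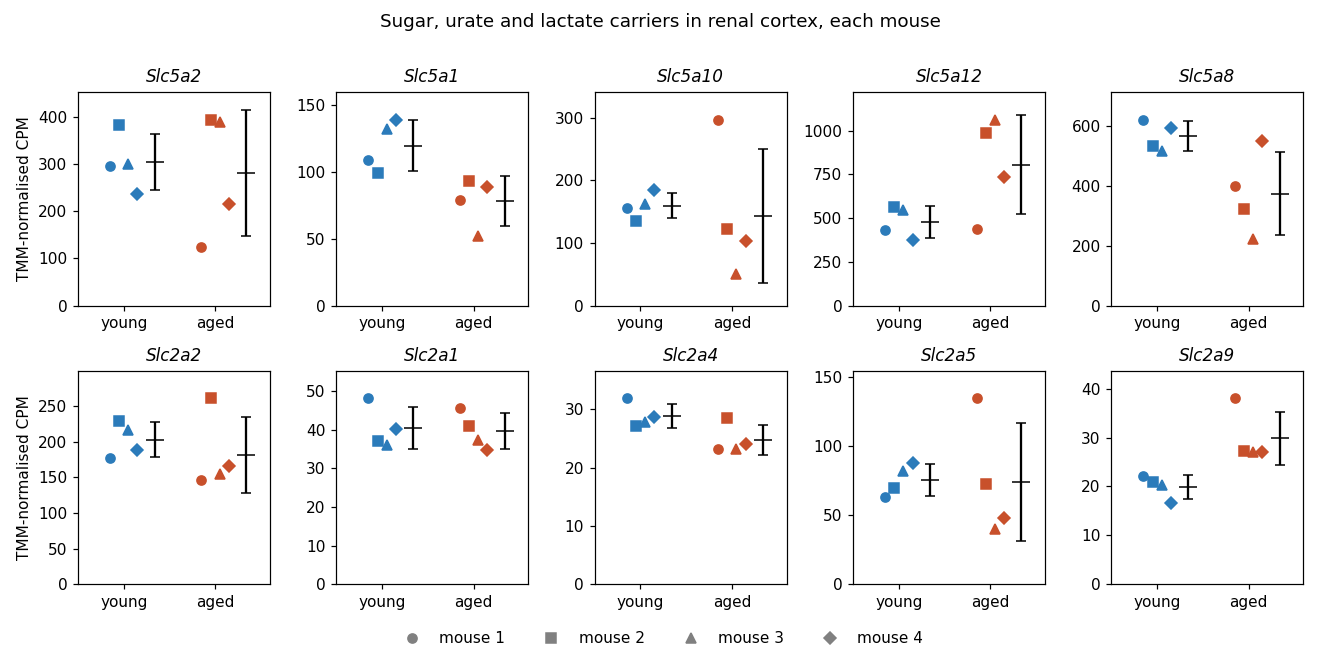
TMM-normalised CPM of the 10 carriers in each mouse, young (blue) and aged (red), with the mean ± SD of each group (n = 4) beside the points; marker shapes give the mouse number. The groups do not overlap for Slc5a1 (52.0 to 92.8 in aged, 99.1 to 139 in young) and Slc2a9 (27.1 to 38.0 in aged, 16.5 to 22.2 in young).

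The aged mice differed among themselves in these carriers. The SD of log2 CPM was larger in aged than in young mice for 9 of the 10 carriers, a share near that of all genes tested (83.4%). The widest were Slc5a10 (1.05 in aged, 0.18 in young), Slc5a2 (0.79 and 0.28) and Slc2a5 (0.77 and 0.22), where the median over all genes tested was 0.25 in aged and 0.12 in young mice. Slc2a1 was the exception (0.17 and 0.19). Over aged mice 2 to 4 alone the SD remained above the young SD for 7 carriers, against 69.0% of all genes, and came to 0.67 for Slc5a10, 0.50 for Slc5a2, 0.44 for Slc2a5 and 0.0031 for Slc2a9.

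All 4 aged mice departed from the young mean in the same direction in Slc5a1, Slc2a9, Slc5a8 and Slc2a4. The smallest of these distances were -0.04 in Slc5a8 (aged mouse 4) and -0.02 in Slc2a4 (aged mouse 2). In Slc5a10, Slc2a5, Slc5a2, Slc2a2, Slc2a1 and Slc5a12 some aged mice lay above the young mean and some below. Aged mouse 1 was highest in Slc2a9, Slc5a10 and Slc2a5, with log2 distances of 0.93, 0.91 and 0.84 from the young mean, and lowest in Slc5a2 (-1.27). Aged mouse 3 was lowest in Slc5a10 (-1.65), Slc5a8 (-1.35), Slc5a1 (-1.19) and Slc2a5 (-0.89), and highest in Slc5a12 (1.17). Aged mouse 2 was high in Slc5a12 (1.06) and Slc2a2 (0.37) and low in Slc5a8 (-0.80). Aged mouse 4 was the nearest to the young mean in Slc5a8 (-0.04). The median absolute distance over the 10 carriers was 0.55, 0.37, 0.67 and 0.43 in aged mice 1 to 4, against 0.38, 0.21, 0.22 and 0.19 over all genes tested.

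**Figure D5:**
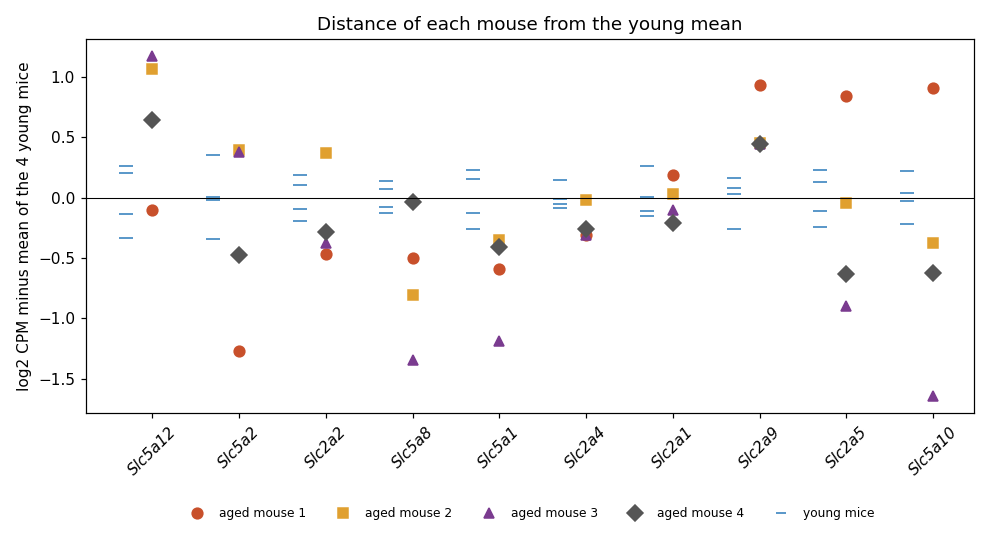
Log2 CPM of each mouse minus the mean of the 4 young mice, for each carrier; large symbols are aged mice and short blue lines young mice. Aged mouse 1 lies at 0.91 in Slc5a10 and -1.27 in Slc5a2, and aged mouse 3 at -1.65 in Slc5a10 and 1.17 in Slc5a12.

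Each carrier was also set against the mean log2 CPM of the 9 S1 and S2 markers of its own library. Slc5a12 was level with these markers in aged mice (-0.00 ± 0.21, log2, SD, n = 4) and below them in young mice (-0.89 ± 0.15, log2, SD, n = 4). The groups did not overlap and differed by 0.89 (two-sided exact permutation test, p = 0.0286, adjusted over the 10 carriers 0.286), and the difference was 0.86 without aged mouse 1. On this scale aged mouse 1 no longer lay among the young mice for Slc5a12. Slc2a9 differed by 0.76 (two-sided exact permutation test, p = 0.0571, adjusted 0.286), and by 0.35 without aged mouse 1. The exact permutation p-values of the other 8 carriers lay between 0.343 and 1, and their differences without aged mouse 1 between -0.98 and 0.0015. With the S3 markers added to the reference, every carrier's difference rose by the same 0.82, because those markers were lower in aged mice. Slc5a12 then differed by 1.70 and Slc2a9 by 1.58, and these 2, Slc2a1 (0.99) and Slc2a4 (0.79) did not overlap between the ages (each p = 0.0286 by two-sided exact permutation, adjusted 0.0714). The sign and separation of these relative levels thus depend on the reference markers. Within the S1 and S2 list, 2 of the 9 markers did not overlap between the ages (18.9% of all genes). Slc22a6 was lower and Slc6a19 higher in aged mice.

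Of the other 15 members of both families in the table, 9 could be tested and none was called by edgeR (2.06% of all genes). Of these 9, 4 had an unadjusted edgeR p below 0.05 (25.5% of all genes) and 2 did not overlap between the ages (18.9% of all genes). Their median log2 fold change was 0.18. Slc2a8, an intracellular hexose carrier, measured 16.3 ± 3.30 CPM (SD, n = 4) in aged and 11.6 ± 0.214 CPM in young mice, with no overlap (log2 fold change 0.50, edgeR adjusted p = 0.0824, and 0.35 without aged mouse 1, edgeR adjusted p = 0.0611). Slc2a3, the neuronal glucose carrier, was scarce at 2.40 to 5.55 CPM in aged and 1.59 to 2.07 CPM in young mice, again with no overlap (log2 fold change 0.84, edgeR adjusted p = 0.133, and 0.47 without aged mouse 1, edgeR adjusted p = 0.154). Slc5a9, a mannose carrier of the brush border, measured 56.6 ± 9.35 CPM in aged and 44.0 ± 2.41 CPM in young mice (log2 fold change 0.36, edgeR adjusted p = 0.115), and without aged mouse 1 its log2 fold change was 0.47 (edgeR adjusted p = 0.0199). Slc5a4a was listed at 0 counts in every library.

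Of the scaffold and regulator genes of these carriers, Pdzk1, which encodes a scaffold of the brush border, measured 278 to 946 CPM in aged and 1131 to 1189 CPM in young mice (log2 fold change -0.72, edgeR adjusted p = 0.189), and without aged mouse 1 its log2 fold change was -0.45, under the fold threshold (edgeR adjusted p = 0.0354). Pdzk1ip1, which encodes the SGLT2 partner MAP17, measured 340 ± 113 CPM (SD, n = 4) in aged and 357 ± 40.6 CPM in young mice (log2 fold change -0.07, edgeR adjusted p = 0.871). The kinase gene Sgk1 measured 82.1 to 489 CPM in aged and 66.6 to 98.4 CPM in young mice (log2 fold change 1.61, edgeR adjusted p = 0.103), and without aged mouse 1 its log2 fold change was 0.96 (edgeR adjusted p = 0.135). As for the carriers, the aged mice were spread more widely than the young mice in each of these 3 genes.

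Of 12 enzymes of sugar and lactate metabolism, 11 could be tested and none was called by edgeR with all mice (2.06% of all genes); 5 had an unadjusted p below 0.05 (25.5% of all genes) and the median log2 fold change was -0.10. Hk2, an inducible hexokinase, was scarce and measured 2.35 to 9.72 CPM in aged and 0.883 to 1.71 CPM in young mice (log2 fold change 1.91, edgeR adjusted p = 0.0611), and passed both criteria without aged mouse 1 (1.35, edgeR adjusted p = 0.0478). G6pc, which releases glucose at the end of gluconeogenesis, measured 332 to 597 CPM in aged and 239 to 358 CPM in young mice (log2 fold change 0.65, edgeR adjusted p = 0.0942, and 0.70 without aged mouse 1, edgeR adjusted p = 0.0768). Ldhd, a D-lactate dehydrogenase, measured 348 to 960 CPM in aged and 940 to 1113 CPM in young mice (log2 fold change -0.89, edgeR adjusted p = 0.103, and -0.72 without aged mouse 1, edgeR adjusted p = 0.112), and passed both criteria without aged mouse 4 (-1.28, edgeR adjusted p = 0.00375).

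Of 9 other genes of urate and lactate transport or urate synthesis, all were tested, 1 was called (2.06% of all genes) and 5 did not overlap between the ages (18.9% of all genes); the median log2 fold change was -0.12. Slc16a1, the proton-coupled lactate and pyruvate carrier MCT1, rose from 48.5 to 55.1 CPM in young to 293, 159, 121 and 84.7 CPM in aged mice 1 to 4. No aged mouse lay within the young range. Its fitted log2 fold change was 1.70 (SE 0.33, edgeR adjusted p = 0.0390), 1.26 without aged mouse 1 (edgeR adjusted p = 0.0144), and the call was lost without aged mouse 2, aged mouse 3 or any young mouse (adjusted p from 0.0575 to 0.128) and with the replicate number as a block (adjusted p = 0.0508).

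The urate genes with the smallest p-values had opposite signs. Slc22a12, the luminal urate exchanger URAT1, measured 770 to 1403 CPM in aged and 1512 to 1663 CPM in young mice (log2 fold change -0.66, edgeR adjusted p = 0.0729, and -0.55 without aged mouse 1, edgeR adjusted p = 0.0628), and without aged mouse 4 it passed both criteria (-0.86, edgeR adjusted p = 0.00747). Xdh, which makes urate, measured 68.1 to 149 CPM in aged and 44.9 to 60.6 CPM in young mice (log2 fold change 0.85, edgeR adjusted p = 0.0732), and without aged mouse 1 its log2 fold change was 0.56, under the fold threshold (edgeR adjusted p = 0.0371). Neither passed the edgeR test with all mice, both passed with DESeq2 (adjusted p = 0.00483 and 0.00824) and limma-voom (adjusted p = 0.0278 and 0.0453), and for both the groups did not overlap.

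Markers of the remaining cell types of cortex were summed in the same way. The groups overlapped for the thick limb (3085 to 5258 CPM in aged, 4634 to 7065 CPM in young), the distal convoluted tubule (1383 to 1754, 1117 to 1792), the collecting duct (312 to 471, 325 to 386), podocytes (258 to 506, 354 to 438), endothelium (362 to 542, 413 to 448), immune cells (166 to 254, 132 to 183) and fibroblasts with smooth muscle (143 to 229, 218 to 266). Within these sums, 2 of the 4 distal convoluted markers did not overlap between the ages, Slc12a3 higher and Calb1 lower in aged mice. For fibroblasts with smooth muscle 2 of 5 did not overlap, Col1a1 and Col3a1, both lower. No marker of the other summed lists separated the ages, where 18.9% of all genes did. All 4 thick limb markers had a negative log2 fold change (median -0.38). Of the 5 erythroid markers the 4 globin genes were listed at 0 and only Alas2 had counts. No marker of these lists was called by edgeR, and their part in any carrier's difference was not tested.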

How the data were processed

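RNA from the renal cortex of 8 mice was sequenced as strand-specific paired ends. The authors aligned read pairs to mm9 with TopHat2, counted them by strand on RefSeq genes with HTSeq and deposited raw counts per gene without normalization; the submitters' processing notes also list CASAVA 1.8.2 and SAMtools. Groups and mouse numbers came from the sample labels. Each table ends in 5 lines for pairs assigned to no single gene, which entered neither library sizes nor tests. Pairs on no gene made up 20.0% to 29.9% of a library's total, pairs aligned to several places 34.3% to 39.1%, and ambiguous pairs at most 0.346%.

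Counts were analysed in R 4.3.3 with edgeR 4.0.16 (TMM normalization, filterByExpr with minimum count 10, quasi-likelihood test, no covariate, Benjamini-Hochberg adjustment over 13944 genes). Calls required an adjusted p below 0.05 together with more than a 1.5-fold change. The SE is the log2 fold change divided by the square root of F, and log2 CPM used a prior count of 2. Ratios used counts plus 0.5 and, like the levels relative to proximal markers, were compared by exact permutation over 70 orders.

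Coordinates, exons and transcript lengths came from the GENCODE annotation of mm9, copies were sought with BLAST 2.17.0, and promoter windows came from RefSeq on GRCm38.p6, read with Python 3.11.15. Alternatives were other scaling and count filters, DESeq2 1.42.0, limma 3.58.1 (voom with sample quality weights), robust fitting, no fold minimum, a replicate block, another marker list, another added count, and each mouse left out in turn. Separation and spread without aged mouse 1 were added after seeing the data. The scripts were tested on simulated counts.

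The text names every carrier, from each pathway list the genes called and otherwise up to 3 with the smallest p, and the 3 genes most like the carrier with the smallest p. Pdzk1ip1 and Slc5a4a were named in addition after their values were seen, and some genes and motifs are not reported here. The carriers and lists were chosen with earlier results of these data known. A table joining these libraries was not used.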

Additional observations from a re-analysis of the deposited data

Results flagged for a closer look

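A single mouse far from the other 3 of its group was looked for in 74 groups of 4 values, with Dixon's 95% limit on the gap to the nearest mouse as a share of the group's range. It was exceeded in 8 groups, where chance gives 3.7. In CPM, aged mouse 1 stood above the other aged mice for Slc2a9 at 38.0 (gap 0.990) and for Slc2a3 at 5.55 (gap 0.896). Aged mouse 2 stood above the other aged mice for Slc2a2 at 261 CPM (gap 0.830) and for Slc2a4 at 28.5 CPM (gap 0.830), both just over the limit. In log2 levels relative to the S1 and S2 markers, aged mouse 1 was highest for Slc2a1 at -3.20 (gap 0.915), for Slc2a4 at -4.17 (gap 0.915) and for Slc2a9 at -3.46 (gap 0.842). On that scale young mouse 1 was the highest young mouse for Slc2a9 at -5.14 (gap 0.882). The sum of the markers that these levels are set against was lowest in aged mouse 1.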

How the results depend on the processing

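The number of carriers called was 0 with edgeR and TMM, 1 with library size alone (Slc2a9), 2 with DESeq2, 1 with limma-voom, 0 with the replicate block, and 0 to 2 when 1 mouse was left out. Over all genes the counts were 287, 484 (365 of them higher in aged mice, against 163 of 287), 873, 483 and 130, and 8 (without young mouse 1) to 733 (without aged mouse 4) with 1 mouse left out. Library size alone moved the median of all genes by 0.11 (log2). Several small log2 fold changes reversed: Slc2a1 was 0.014 with upper-quartile factors, 0.087 with library size alone and -0.10 to 0.068 with 1 mouse left out, Slc2a5 was 0.013, 0.090 and -0.50 to 0.17 in the same settings, Slc5a2 was 0.046 with limma-voom and -0.33 to 0.13 with 1 mouse left out, and Slc5a10 was -0.80 to 0.12 with 1 mouse left out. Relative to S1, S2 and S3 markers together, in place of S1 and S2, the differences turned positive for Slc2a4 (0.79), Slc5a1 (0.37), Slc5a2 (0.77), Slc5a8 (0.34) and Slc5a10 (0.57). That reference adds the same 0.82 to all 10 carriers, so these sign changes follow from the choice of markers alone; Slc2a1 (0.99), Slc2a2 (0.82), Slc2a5 (0.83), Slc2a9 (1.58) and Slc5a12 (1.70) rose by it too. Of the other carriers, Slc2a2, Slc2a4, Slc2a9, Slc5a1, Slc5a8 and Slc5a12 kept the sign of their edgeR fold change in all 18 alternatives. Robust fitting and no fold minimum are among these and left the fold changes as they were, so they say nothing on the sign.

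The sample labels name no pairing of mice, and whether same-numbered mice were paired was not settled by their values. Deviations of same-numbered mice correlated at 0.21, 0.04, 0.20 and -0.03. Aged mice 1, 2 and 3 each correlated best with the young mouse of the same number, and aged mouse 4 did not. With the replicate block, 130 genes and 0 carriers were called. Pairing cannot alter the mean difference of any of the 5 ratios, and the smallest possible sign-flip p was 0.125. With 3 against 4 mice the smallest exact p is 0.0571, so leaving out a mouse says nothing on the calls of ratios. With 4 mice a group, changes of 1.5-fold in both directions lay inside the intervals of Slc5a2, Slc5a10 and Slc2a5. In the direction of their estimate only, a 1.5-fold change also lay inside those of Slc5a1, Slc5a8, Slc5a12 and Slc2a9.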
